A study of Mus musculus with 24 samples.

Results

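The 9 libraries described here come from 2-year-old mice and are 9 of the 24 in the series. They were chosen by title: 3 libraries of hair follicle stem cells (HFSC 2y) were set against the mean of 3 libraries of label-retaining cells (LRC 2y) and 3 of non-label-retaining cells (nLRC 2y). LRC and nLRC are the slow-cycling and fast-cycling stem cells of the epidermis between the follicles, here called epidermal cells, and HFSC are also described in the labels as bulge cells. All mice were of the strain C57BL/6J with the genotype K5-tTA/pTRE H2B-GFP, so a keratin 5 promoter drives a fluorescent histone that doxycycline switches off. Every group, at every age, had received doxycycline for 2 weeks, and there is no group without the transgenes or the drug. Cells were freed from tail skin with trypsin, sorted into Trizol and sequenced as total RNA. The titles number the libraries of each population 1 to 3. The labels do not say whether libraries with the same number share an animal, or whether animals were pooled, so p-values measure the spread between these libraries. The same contrast in the 9 libraries from 2-month-old mice served for the comparison between ages.

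The bulge is the part of the hair follicle that houses its slow-cycling stem cells. Bulge cells are known for the surface protein CD34, for keratin 15, and for transcription factors such as LHX2, SOX9, TBX1, TCF7L1 and NFATC1 that maintain the stem cells or hold them at rest. Basal epidermal cells express keratins 5 and 14 and switch to keratins 1 and 10 as they leave the basal layer. Tail skin is unusual among mouse skin in that scales, which make hard keratins of the kind found in hair, alternate with interscale regions that differentiate like the skin of the back.

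Gene reads per library ran from 8024983 to 13731614 at 2 years. The library nLRC number 1 stood apart: it had reads in 15689 genes, against 17968 to 20949 in the other 8, its 10 most abundant genes took 51.0% of its reads, against 28.6 to 42.2%, and its TMM scaling factor was 0.656. Several counts of genes and sizes of differences that include it are followed by values without it, but the fitted differences of single genes are not. The deposited gene reads cover more than the deposited TPM does, since 2179 to 3725 genes per library had gene reads and a TPM of 0. Whether reads were counted by strand is not given in the sources used here. Values are CPM (reads of a gene relative to all gene reads of its library) with TMM scaling, and differences are fitted log2 values. In sorted bulk RNA, fewer cells of a type and less RNA per cell cannot be told apart.

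At 2 years no gene passed the test between HFSC and epidermal libraries. Of 15137 genes tested with same-numbered libraries as blocks, 0 (0%) passed an adjusted p of 0.05 in edgeR's quasi-likelihood test, and the smallest adjusted p was 0.998. At an unadjusted p under 0.05 there were 457 genes where 757 would fall by chance alone. That count depended on single libraries: it was 201 without HFSC number 1, 298 without LRC number 2 and 867 without nLRC number 2. The plot of p-values shows the low end for the fit of all 9 libraries, beside an excess for replicate number. DESeq2 called 4 genes, with 541 at an unadjusted p under 0.05, and limma on TPM called 0, with 507. Against LRC alone 0 genes were called by edgeR, with 212 at an unadjusted p under 0.05, and against nLRC alone 0, with 1253, or 776 without nLRC number 1. LRC against nLRC also gave 0 calls (0%), with 1456 genes at an unadjusted p under 0.05 and 3 called by DESeq2. The 1456 became 852 without nLRC number 1, 2414 without nLRC number 2, 462 without LRC number 1 and 599 without LRC number 3. A p that misses the threshold does not show that the populations are alike. Leaving out nLRC number 1 gave 0 genes for HFSC against epidermal cells, with 654 at an unadjusted p under 0.05.

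**Figure D1:**
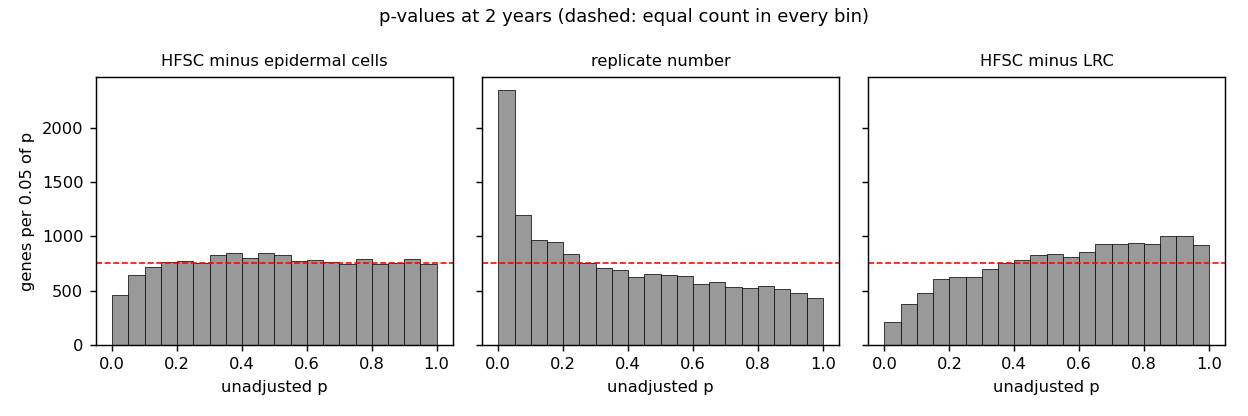
Histograms of unadjusted edgeR p-values over 15137 genes at 2 years, with the number of genes in each step of 0.05 on the vertical axis. The dashed line marks equal counts per step, and the first step holds 457 genes for HFSC minus epidermal cells, 2349 for replicate number and 212 for HFSC minus LRC.

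Without a filter on low counts, the same test called 47 genes, 29 higher and 18 lower in HFSC. Of these 47, 46 had also been tested with the filter. In the unfiltered fit the prior degrees of freedom were infinite for the median gene, so its own spread had no weight, where they were 7.97 with the filter and 4 residual degrees of freedom came from the libraries. Iqcg, one of the 47, had an unadjusted p of 0.323 with the filter. Gatb, Akap2, Adamtsl1, Krt35, Oca2 and Sfrp1, described below, were among the 47. Sfrp1 was the only gene of the bulge lists among them, with an edgeR unadjusted p of 0.0920 with the filter. Of the 4 genes called by DESeq2, Krt35 had an adjusted p of 0.0270 there. Gm6768, an unnamed gene model, was called by DESeq2 (adjusted p 0.000217) and in the unfiltered fit, and all 3 HFSC libraries (2.36, 7.19 and 6.87 CPM) lay below all 6 epidermal libraries (11.9 to 27.8 CPM). Gstp2 and Gm20631 had 0 CPM in several libraries. Gm6768, Gstp2, Gm20631 and Iqcg are named here because of these counts, after their values were seen.

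Among bulge genes, the transcription factors are described first. Lhx2 (chromosome 2, 38339281 to 38369733, GRCm38), which keeps hair follicle stem cells in their undifferentiated state, had 25.03, 12.5 and 19.4 CPM in HFSC numbers 1, 2 and 3. It had 13.7, 8.10 and 11.2 CPM in LRC and 7.41, 5.09 and 9.84 CPM in nLRC of the same numbers. HFSC was highest within each number, but the values overlapped across numbers, since HFSC number 2 lay below LRC number 1. The fitted difference was 1.05 on the log2 scale (SE 0.24, edgeR unadjusted p 0.000885, adjusted p 0.998). Tcf7l1, a Wnt-pathway repressor of the bulge, had 51.8, 67.6 and 58.8 CPM in HFSC against 42.0, 47.9 and 49.7 CPM in LRC and 13.7, 54.2 and 31.7 CPM in nLRC. It too was highest in HFSC within each number, with a log2 difference of 0.64. Tbx1, a regulator of stem cell quiescence, had 23.8, 18.1 and 15.7 CPM in HFSC, 13.8, 10.7 and 13.4 CPM in LRC and 21.5, 10.3 and 9.94 CPM in nLRC (log2 0.55, SE 0.24). HFSC was highest within each number, and the groups overlapped across numbers. Sox9, needed to form and keep the bulge, differed by 0.30 (SE 0.13), and HFSC number 3, at 156.9 CPM, lay apart from the other 8 libraries at 85.4 to 112.3 CPM. In the deposited TPM of Sox9, HFSC was the highest of each number, at 82.1, 60.3 and 82.9 against at most 70.8, 44.0 and 70.4. Nfatc1, which holds bulge cells at rest, was nearly level, with 110.7 to 129.8 CPM in HFSC and 103.0 to 123.9 CPM in epidermal cells (log2 0.07, SE 0.11). Its TPM in number 3 was lower in HFSC (17.6) than in LRC (18.5).

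Cd34, the surface protein by which bulge cells are usually sorted (chromosome 1, 194938819 to 194961279), was the only gene of the bulge lists in which all HFSC libraries lay above all epidermal libraries. It had 10.6, 13.7 and 10.3 CPM in HFSC, 3.80, 7.08 and 1.55 CPM in LRC and 5.93, 6.83 and 7.85 CPM in nLRC. The log2 difference was 1.15 (SE 0.38, edgeR unadjusted p 0.0101, not called). Every HFSC library lay above every epidermal library in 129 of all tested genes (0.852%), and below in 94 (0.621%). Cd34 is also made by endothelial cells, and the other list gene separated in this way was Tek, an endothelial receptor, with 6.53, 3.28 and 5.51 CPM in HFSC and 1.08 to 3.15 CPM in epidermal cells. The summed CPM of 8 endothelial genes, scaled over both ages, was 41.0 to 96.3 in HFSC, 31.9 to 76.3 in LRC and 55.4 to 154.4 in nLRC, and none of the 8 was at 0 in all libraries. Their part in the Cd34 values was not tested.

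Lgr5, a receptor that marks cycling follicle stem cells (chromosome 10, 115450311 to 115587780), had 35.9, 12.5 and 17.2 CPM in HFSC, 41.3, 7.39 and 21.1 CPM in LRC and 13.5, 6.83 and 8.25 CPM in nLRC. Number 1 was the highest number in each population, and HFSC was above LRC in number 2 and below it in numbers 1 and 3, though in the deposited TPM it was above LRC in each number (3.15, 1.21 and 0.980 against 2.75, 0.513 and 0.546). Its log2 difference of 0.57 (SE 0.25) had an edgeR unadjusted p of 0.0418, while the replicate number passed with an adjusted p of 0.0285. Krt15, the keratin most used as a bulge marker (chromosome 11, 100131758 to 100135928), had 615.7, 975.9 and 726.7 CPM in HFSC, 602.0, 1099.6 and 585.3 CPM in LRC and 721.8, 985.4 and 592.0 CPM in nLRC. Number 2 was the highest in every population, HFSC did not stand out in CPM (log2 0.04, SE 0.13), and replicate number passed with an edgeR adjusted p of 0.0429. In the deposited TPM of Krt15, HFSC was the highest of each number, at 1044, 1358 and 884 against at most 1030, 1248 and 860. Among secreted proteins, Ctgf, a matrix-associated growth regulator also called Ccn2, had 49.1, 42.9 and 38.7 CPM in HFSC, 35.0, 41.5 and 25.9 CPM in LRC and 19.8, 27.2 and 21.7 CPM in nLRC. HFSC was highest within each number (log2 0.65, SE 0.17, edgeR unadjusted p 0.00217). Sfrp1, a Wnt inhibitor, had 39.99, 24.6 and 39.7 CPM in HFSC and 3.71 to 26.9 CPM in epidermal cells, with its lowest value in nLRC number 1 (log2 0.85, SE 0.44). Grem1, a BMP antagonist, had 1.59 to 7.80 CPM in HFSC and 0.405 to 7.59 CPM in epidermal cells, and Krt8, a simple-epithelium keratin, 4.76 to 8.52 and 2.08 to 13.5 CPM, so both overlapped. In the deposited TPM of Krt8, HFSC was the highest of each number, at 14.3, 5.84 and 8.77 against at most 9.66, 4.57 and 3.22. For Grem1 this did not hold in number 3, where HFSC had 2.58 and LRC 4.75.

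**Figure D2:**
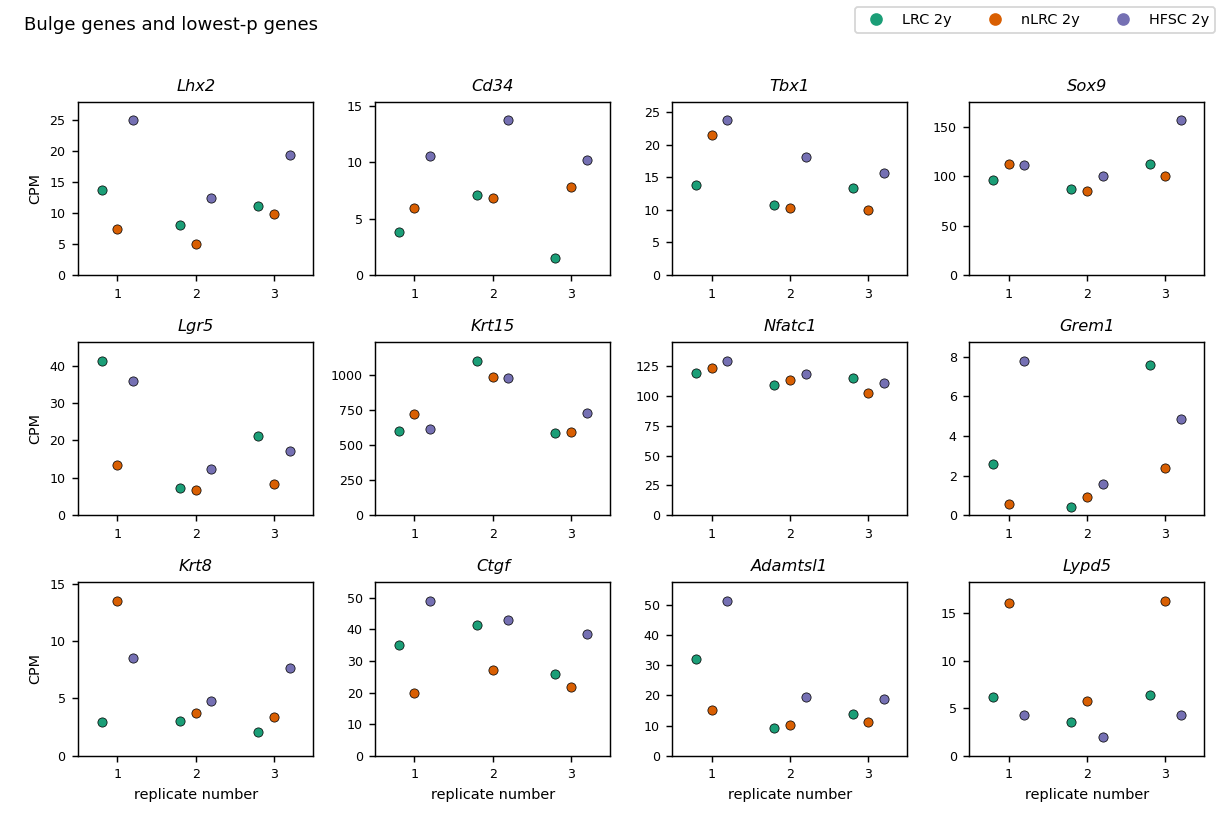
CPM of 12 genes in each of the 9 libraries at 2 years, by replicate number on the horizontal axis and population by colour, on linear axes from 0. HFSC is the highest of each number for Lhx2, Cd34, Tbx1, Ctgf and Adamtsl1 and the lowest for Lypd5, while for Krt15 and Lgr5 the numbers differ more than the populations.

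Over the 4 bulge lists, 42 of 43 genes were tested and 0 were called in HFSC against epidermal cells. Of the 42, 31 had a log2 difference above 0, with a median of 0.16, where all tested genes had a median of 0.02 and 53.3% lay above 0. HFSC was the highest library within all 3 numbers for 6 of the 42 (14.3%), namely Lhx2, Tcf7l1, Tbx1, Cd34, Ctgf and Sfrp1, against 619 of all tested genes (4.09%). HFSC was the lowest within all 3 numbers for 0 of the 42, against 492 of all tested genes (3.25%). By role, 10 of 12 transcription factors, 7 of 10 surface proteins and receptors, 12 of 15 secreted and matrix proteins and 2 of 5 keratins lay above 0. Without nLRC number 1, 32 of the 42 lay above 0 with a median of 0.15, where all genes had 0.00 and 50.6%. Leaving out all libraries of 1 number gave 29 to 31 genes above 0 and medians of 0.10 to 0.20. The lists were drawn up with results of these data known, and their counts describe them without a test.

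Of all tested genes, bulge lists included, 60 (0.396%) had an unadjusted p under 0.01. Gatb, a mitochondrial tRNA amidotransferase subunit, had 25.3, 19.5 and 12.4 CPM in HFSC, 5.12, 5.97 and 5.64 CPM in LRC and 13.0, 13.0 and 10.6 CPM in nLRC (log2 1.17, SE 0.25, edgeR unadjusted p 0.000616). HFSC was highest in each number and LRC lowest, so here LRC and HFSC were the 2 ends. Gatb overlaps a gene on the other strand, and in the deposited TPM HFSC lay below nLRC in numbers 2 (2.95 against 3.29) and 3 (2.09 against 2.14). Akap2, an anchor of protein kinase A, had 18.1, 18.2 and 27.9 CPM in HFSC and 4.63 to 16.3 CPM in epidermal cells (log2 1.06, SE 0.24). It overlaps Pakap on the same strand, so its reads are of uncertain origin. Adamtsl1, a matrix glycoprotein, had 51.4, 19.4 and 18.7 CPM in HFSC, 31.9, 9.31 and 13.8 CPM in LRC and 15.01, 10.3 and 11.2 CPM in nLRC (log2 0.92, SE 0.23). HFSC was the highest of each number, yet HFSC numbers 2 and 3 lay below LRC number 1, and Adamtsl1 was also called for replicate number. In the deposited TPM, however, HFSC of number 1 was the lowest of its number, at 0.733 against 0.937 in LRC and 1.19 in nLRC. Adamtsl1 overlaps Sh3gl2 on the same strand, so its reads are of uncertain origin. Oca2, a melanosome channel, had 6.71, 22.1 and 12.4 CPM in HFSC and 0.301 to 13.8 CPM in epidermal cells (log2 1.67, SE 0.52, edgeR unadjusted p 0.00845). The pigment genes as a list were closer to level: 9 of 10 tested melanocyte genes lay above 0 with a median of 0.30, and their summed CPM, scaled over both ages, was 148.2 to 303.3 in HFSC and 130.6 to 254.3 in epidermal cells.

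Named genes lower in HFSC are described next, and how many there are follows from the naming rules. Krt35, a hair-type keratin that tail scales also make (chromosome 11, 100092193 to 100096241), had 7.25, 0 and 10.6 CPM in HFSC, 18.5, 0 and 30.6 CPM in LRC and 31.7, 0 and 34.5 CPM in nLRC. No library of number 2 had a read for it, and in numbers 1 and 3 HFSC was the lowest (log2 -1.67, SE 0.32, edgeR unadjusted p 0.000367). Lypd5, a surface protein of the Ly6 family, had 4.26, 2.01 and 4.26 CPM in HFSC, 6.15, 3.54 and 6.38 CPM in LRC and 16.1, 5.76 and 16.3 CPM in nLRC. HFSC was lowest within each number, and number 2 was lowest within each population (log2 -1.22, SE 0.34). Acot13, a thioesterase of fatty acid metabolism, had 13.1, 16.3 and 13.4 CPM in HFSC and 19.3 to 32.01 CPM in epidermal cells, without overlap (log2 -0.73, SE 0.20, edgeR unadjusted p 0.00372, not called). In the deposited TPM of Acot13 the groups overlapped, since HFSC number 2 had 52.1 and LRC number 2 had 49.4. Rps12-ps3 and Rpsa-ps10, with log2 differences of -0.64 and -0.59, are near-copies of ribosomal protein genes, so their reads are uncertain. Ly6a, which marks epidermis between follicles, had 11.97, 26.5 and 18.1 CPM in HFSC against 14.4 to 36.0 CPM in epidermal cells and was lowest in HFSC within each number (log2 -0.58, SE 0.20). In the deposited TPM of Ly6a this did not hold in number 1, where HFSC had 31.06 and nLRC 30.34. Of 24 differentiation genes 0 were called, 17 lay below 0 and the median was -0.15. Over all tested genes the median was 0.02 and 53.3% lay above 0. Of 16 basal layer genes 0 were called, 13 lay below 0 and the median was -0.07. HFSC was lowest within all 3 numbers for 2 of these 16, against 492 of all tested genes (3.25%). These counts, and those of proliferation genes below, describe the lists without a test. Krt10, made on leaving the basal layer, had 2488, 2031 and 3714 CPM in HFSC and 2426 to 4101 CPM in epidermal cells. Of 30 proliferation genes 0 were called, 21 lay below 0 and the median was -0.08. Mki67, a protein of dividing cells, had 341.0, 186.4 and 180.0 CPM in HFSC and 208.8 to 333.7 CPM in epidermal cells.

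Markers of other cells were found in every population at 2 years, and the 2-month sums of some of these lists are given below. Erythroid genes summed to 64.2 to 120.3 CPM in HFSC, 18.9 to 177.8 in LRC and 151.5 to 371.8 in nLRC. The haemoglobin gene Hba-a1 had 13.9, 22.1 and 14.9 CPM in HFSC and 8.87 to 65.4 CPM in epidermal cells, with the highest value in nLRC number 1, and its reads can come from the near-identical Hba-a2. T cell genes summed to 28.9 to 67.1 CPM in HFSC and 26.01 to 72.5 in epidermal cells, Langerhans and myeloid genes to 16.7 to 33.7 and 7.44 to 64.6, fibroblast genes to 34.7 to 48.8 and 34.1 to 59.6, and Merkel cell genes to 8.99 to 15.03 and 4.27 to 20.2. Skeletal muscle genes summed to at most 3.31 CPM in any library. The defining Merkel genes Atoh1 and Sox2 were at 0 in all 9 libraries. The ranges of HFSC and epidermal libraries overlapped for each of these lists, and their part in the results was not tested.

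Within each replicate number, HFSC could be set against its own epidermal partners. The absolute log2 difference of the median gene was 0.42 in number 1, 0.23 in number 2 and 0.31 in number 3, and 20.7, 8.49 and 15.2% of genes differed by over 2-fold. Against LRC alone, which leaves nLRC number 1 out, the median gene had 0.29, 0.25 and 0.41, and 13.8, 10.8 and 20.6% of genes differed by over 2-fold, so the order of the numbers changed. The 3 differences share no library, and they had little in common: across 15137 genes, which are not independent replicates, Pearson's r was 0.13 between numbers 1 and 2, -0.0003 between 1 and 3 and -0.002 between 2 and 3. Among genes with an average log2 CPM of at least 3, r was 0.25, -0.02 and 0.02. All 3 differences had the same sign in 28.7% of genes, where independent signs would give 25%, with 2476 genes higher in HFSC and 1864 lower. Set against LRC alone, a choice made after the values were seen, r was 0.08, 0.01 and -0.02.

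The libraries instead followed their replicate number. In an F test of both block terms in the same edgeR fit, 372 genes (2.46%) passed an adjusted p of 0.05. This count was 1560 without nLRC number 1 and lower without any other library: 262, 107 and 167 without LRC numbers 1, 2 and 3, 222 and 160 without nLRC numbers 2 and 3, and 239, 86 and 215 without HFSC numbers 1, 2 and 3. Of the 372, 369 were also called without nLRC number 1. Number 2 was the one that differed most: against the mean of numbers 1 and 3 it had 158 genes higher and 332 lower, and number 3 against the mean of 1 and 2 had 89 higher and 39 lower. Without nLRC number 1 these were 627 higher and 1048 lower for number 2, and 330 higher and 176 lower for number 3. Among the 372, all 3 libraries of number 2 lay above the other 6 in 76 genes and below them in 200. The same held for number 1 in 45 and 20 genes and for number 3 in 58 and 36. Without the libraries of number 2, 22 genes were called for the remaining pair of numbers, where 102 were called without number 3 and 1230 without number 1.

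For the median gene, replicate number took 30.7% of the sum of squares of log2 CPM over the 9 libraries, population 21.7% and the remainder 38.4%. Equal spread would give 25, 25 and 50% as means over genes. HFSC against epidermal cells took 5.32%, where equal spread would give a mean of 12.5%. The median of such a share lies below its mean where that mean is under 50%. A median below these means is therefore not read as less than equal spread would give. Replicate number took more than population in 58.0% of genes. In LRC and HFSC libraries alone, a choice made after the values were seen, replicate number took 56.5% and population 7.79%. Equal spread would give means of 40 and 20% there, again with lower medians. The first principal component (33.2% of the variance) set nLRC number 1 apart from the other 8. The second (21.1%) held all 3 libraries of number 2 between -58.1 and -50.2 and the other 6 between -4.93 and 63.2. The third (12.3%) held HFSC and LRC of number 1 at -49.7 and -53.3, below every other library.

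**Figure D3:**
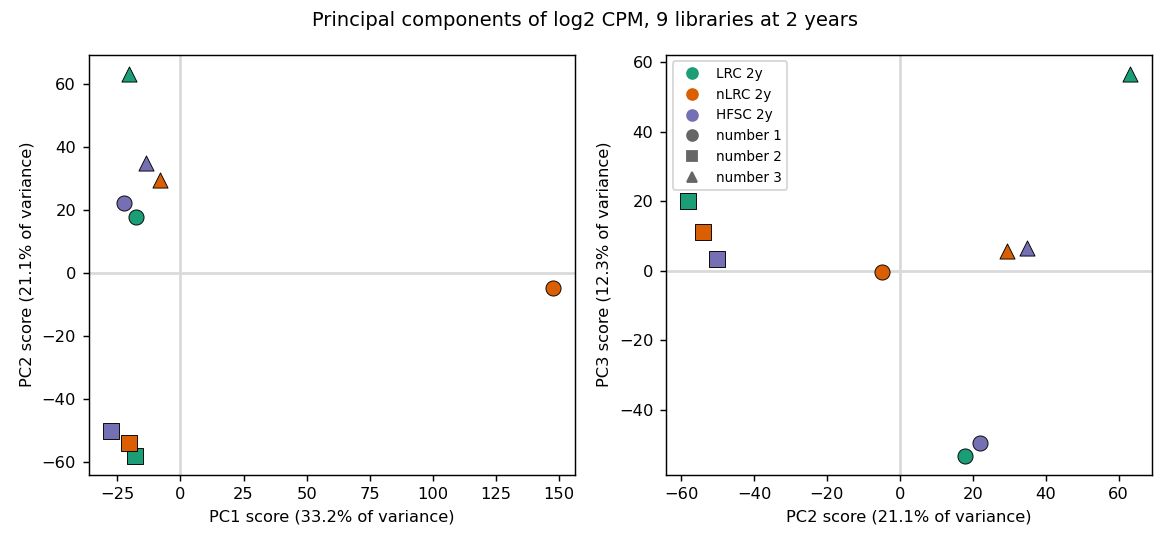
Scores of the 9 libraries on principal components 1 to 3 of log2 CPM, with population by colour and replicate number by symbol. Component 1 separates nLRC number 1 at 147.6, component 2 the squares of number 2, and no component shown separates the 3 HFSC libraries from the rest.

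Each library's deviation from its population mean was correlated with those of the others across genes. For pairs of the same number and different populations, r ran from 0.04 to 0.47 with a median of 0.23, and 7 of 9 were over 0.1. Both pairs under 0.1 held nLRC number 1, and the other 7 ran from 0.19 to 0.47. For pairs of different number and population, r ran from -0.32 to 0.09. Centring on a mean of 3 libraries itself lowers the values of pairs that share a population and shifts the others, so these values are a description. By log2 CPM, 8 of 9 libraries were closest to one of their own number. The exception was nLRC number 1, closest to nLRC number 3. The closest pair of all was LRC and nLRC of number 2 (r 0.96).

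The sex-linked transcripts moved with the numbers. Xist, the RNA that silences an X chromosome in female cells (chromosome X, 103460366 to 103483254), had 744.7, 430.7 and 692.1 CPM in LRC, nLRC and HFSC of number 1 and 843.2, 752.2 and 734.4 CPM in number 3. In number 2 it had 1.52, 0.536 and 0.106 CPM. The Y-linked genes were the reverse. Uty had 51.2, 48.2 and 56.4 CPM in number 2 and at most 1.18 CPM elsewhere, Eif2s3y 34.0, 27.0 and 38.5 CPM against at most 0.0907, and Ddx3y 41.0, 42.0 and 31.3 CPM against at most 0.398. All 3 populations of a number thus carried the same sex-linked pattern, and number 2 was the only one with Y-linked transcripts. The labels used here do not give sex. Sex and replicate number 2 cannot be told apart at 2 years. Of the 372 genes, 365 had a position in GENCODE M21, of which 12 were on chromosome X and 4 on Y, so 349 lay on neither. These are 3.29% on X and 1.10% on Y, where all tested genes with a position had 3.02% on X and 0.048% on Y.

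Keratins made in tail scales also differed widely between numbers. Krt84 (chromosome 15, 101525026 to 101532820) had 417.3, 1405 and 983.6 CPM in LRC, nLRC and HFSC of number 1, 26.4, 55.3 and 67.7 CPM in number 2 and 1488, 2555 and 1899 CPM in number 3. Number 2 lay below all other libraries by a wide margin (log2 -4.78 against the mean of numbers 1 and 3, SE 0.24, edgeR adjusted p for replicate number 2.85e-06), and every library of number 3 lay above every library of number 1. Krt36 (chromosome 11, 100102007 to 100105626) had 161.9, 842.5 and 540.2 CPM in number 1, 14.3, 30.3 and 55.6 CPM in number 2 and 885.4, 1371 and 960.4 CPM in number 3 (log2 -4.52, SE 0.48). Krt2, a keratin of upper epidermal layers (chromosome 15, 101810689 to 101818169), had 1052, 1354 and 1128 CPM in number 1, 395.3, 526.4 and 455.6 CPM in number 2 and 1481, 2469 and 2167 CPM in number 3 (log2 -1.75, SE 0.14). Krt35, above, was at 0 in number 2 alone. Of 7 tested scale keratins, 4 were called for replicate number, namely these. Krt31 had 0.506, 0 and 0.106 CPM in number 2 but also 0.672 CPM in LRC number 3, and was not called. The bases before the starts of the 3 abundant ones are shown because these genes moved together. They are RefSeq promoters on GRCm38.p6, minus strand, at chr15:101532821-101532940, chr11:100105627-100105746 and chr15:101818170-101818289, and capitals mark TATAA, the core of a TATA box, searched on the gene's strand with its first base 10 to 60 bases before the start.
Krt84: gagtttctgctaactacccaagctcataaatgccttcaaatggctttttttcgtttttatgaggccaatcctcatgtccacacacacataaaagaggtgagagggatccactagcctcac
Krt36: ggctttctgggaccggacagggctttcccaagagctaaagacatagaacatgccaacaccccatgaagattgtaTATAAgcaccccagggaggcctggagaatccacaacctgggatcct
Krt2: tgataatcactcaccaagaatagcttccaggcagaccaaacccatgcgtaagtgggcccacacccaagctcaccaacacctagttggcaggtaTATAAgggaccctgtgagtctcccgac
These letters stood 46 bases before the start of Krt36 and 27 before that of Krt2, were not in this window of Krt84, and were in 5.33% of 32851 promoters. The window was set after these sequences had been seen.

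Other genes named for replicate number fell into 2 patterns. Akr1c18, a progesterone-metabolising enzyme, Ptgs1, a prostaglandin synthase, and Hhip, an inhibitor of hedgehog signalling, were low in number 2 alone. Akr1c18 had 2.13, 2.41 and 1.27 CPM there and 36.6 to 61.7 CPM elsewhere, Ptgs1 3.24, 2.28 and 3.70 CPM against 23.4 to 34.6, and Hhip 2.53, 1.61 and 1.80 CPM against 17.2 to 55.3, without overlap. The edgeR adjusted p of the 3 genes was at most 3.31e-05. Baiap2l1, an actin-membrane adaptor, was instead high in number 1 alone, with 233.6, 223.2 and 197.8 CPM in LRC, nLRC and HFSC and 21.3 to 37.8 CPM in the other 6. Rpsa-ps10, a processed pseudogene, was low in number 1 alone, with 12.1, 17.8 and 7.25 CPM against 66.9 to 128.9.

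**Figure D4:**
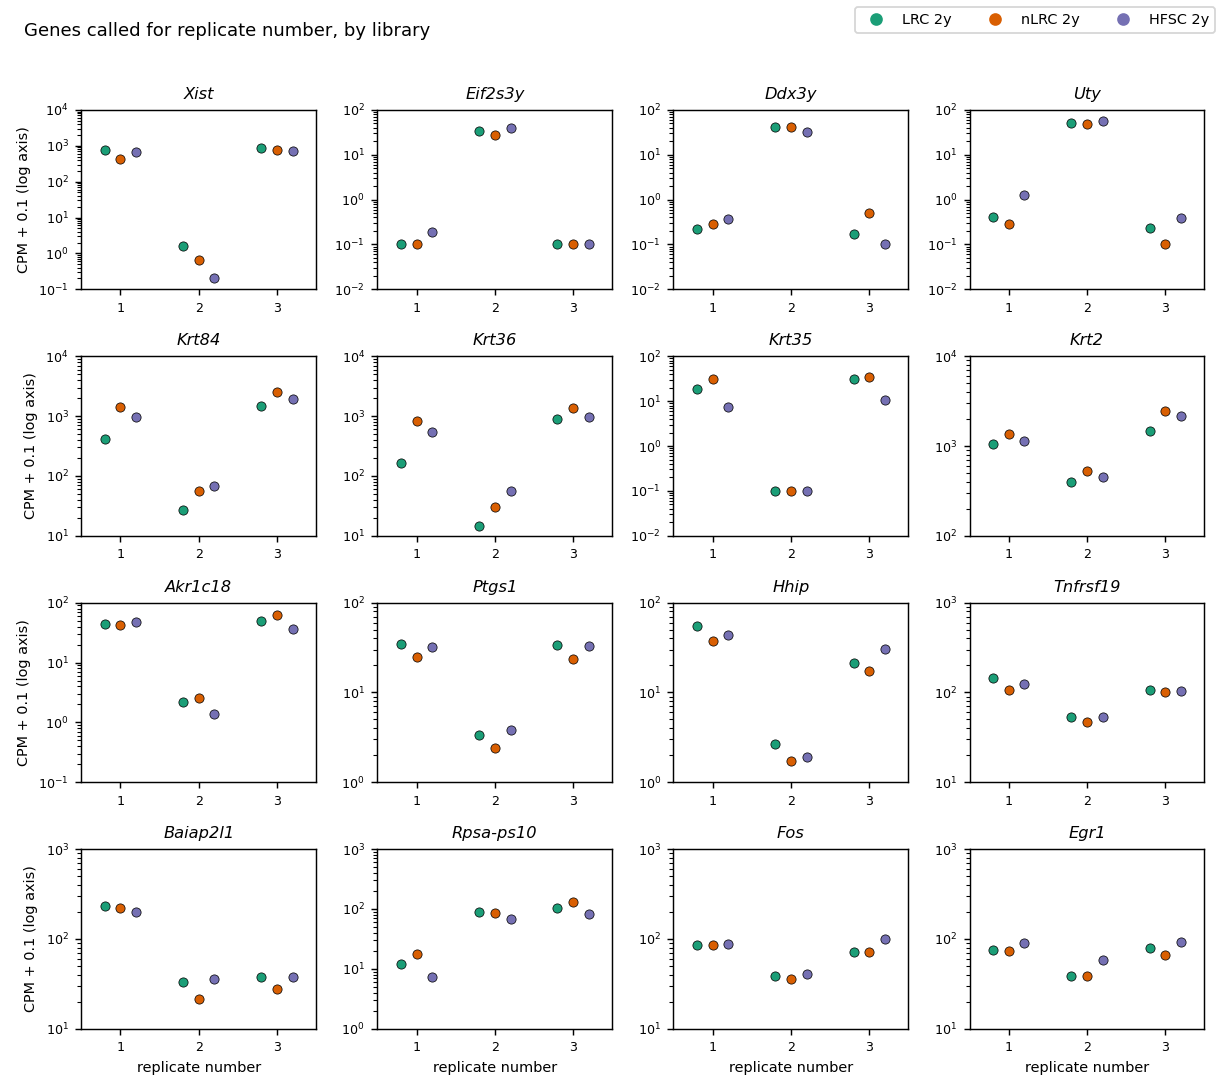
CPM plus 0.1 on log axes for 16 genes called for replicate number, by number and population (colour), in the 9 libraries at 2 years. Most panels show the 3 colours together and number 2 apart, while Baiap2l1 and Rpsa-ps10 set number 1 apart.

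Over all fixed lists, 35 of 234 tested genes (14.96%) were called for replicate number, against 2.46% of all tested genes. The lists were drawn up with results of these data known and hold the sex-linked genes and scale keratins above. Their shares are a description without a test. Immediate early genes, which are switched on within minutes by stimuli such as tissue dissociation, had 6 of 24 called, namely Fos, Fosb, Jun, Egr1, Atf3 and Btg2, each with its lowest fitted level in number 2. Fos had 38.4, 35.3 and 40.9 CPM in LRC, nLRC and HFSC of number 2 and 70.6 to 98.9 CPM in the other 6 libraries, without overlap (edgeR adjusted p 0.00374). Egr1 had 39.0, 38.2 and 57.7 CPM in number 2 and 65.3 to 92.2 CPM elsewhere. Its CPM was also highest in HFSC within each number (log2 0.41, SE 0.13, edgeR unadjusted p 0.00696). In the deposited TPM of Egr1 this did not hold in number 3, where HFSC had 44.0 and LRC 46.2. Differentiation genes had 7 of 24 called, namely Krt77, Sbsn, Krtdap, Dsg1a, Dsc1, Calml3 and Sprr1a. Bulge genes had 6 of 42 called, namely Barx2, Lgr5, Lgr6, Krt15, Krt24 and Krt75. Krt75, a companion-layer keratin, had 5.26, 7.77 and 10.7 CPM in number 2 and 30.3 to 72.8 CPM elsewhere. Dct, a pigment enzyme, had 40.8, 41.5 and 34.7 CPM in number 1 and 84.5 to 118.9 CPM elsewhere, again without overlap. Tnfrsf19, a TNF-family receptor, had 53.1, 47.3 and 53.4 CPM in number 2 and 101.9 to 143.9 CPM elsewhere (edgeR adjusted p 0.00141). In the 372 genes called for replicate number, the median absolute log2 difference of HFSC against epidermal cells was 0.21, as over all tested genes. Of the 372, 39 (10.5%) had an unadjusted edgeR p under 0.05 for that difference, against 3.02% of all tested genes. Both tests use the same estimate of a gene's spread, so genes called in one tend to have a smaller p in the other. Nothing about the populations is read from this share.

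At 2 months Y-linked transcripts were in numbers 2 and 3 and Xist in number 1, again alike in all 3 populations. Krt84 had 129.2, 1015 and 53.8 CPM in LRC, nLRC and HFSC of number 1, 35.9, 596.6 and 7.66 CPM in number 2 and 39.6, 546.0 and 5.82 CPM in number 3. The number with Xist was the highest within each population for Krt84, and also for Krt36, at 59.9, 368.4 and 32.7 CPM against at most 24.2, 280.4 and 4.44. For Hhip this held in LRC and nLRC (4.18 and 38.1 CPM against at most 1.25 and 25.2), but not in HFSC, where numbers 1 to 3 had 1.42, 2.30 and 0.448 CPM. Other genes went the other way. Krt35 was highest in number 3 in each population, at 2.22, 3.45 and 9.25 CPM in LRC, nLRC and HFSC against 0.921, 0.577 and 0.943 CPM in number 1. Krt31 was lowest in number 1 in each population, at 0.283, 0.0962 and 0.660 CPM, and Akr1c18 was lowest there in LRC and HFSC but highest in nLRC. Several of these values lie near or under the level of 3 reads, which was 0.212 CPM in LRC, 0.269 in nLRC and 0.322 in HFSC. Akr1c18 was at 3 reads or fewer in every HFSC library, so nothing is read from the order of the numbers in these 2 genes. Baiap2l1, at 23.4 to 43.3 CPM, and Rpsa-ps10, at 6.43 to 20.1 CPM, did not separate number 1 at 2 months. These 2-month values were not tested by number.

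The same contrast was large at 2 months. Of 16481 genes tested in the joint fit of 18 libraries, 3712 (22.5%) were called at 2 months, 1940 higher and 1772 lower in HFSC, and 0 at 2 years, with 1058 at an unadjusted p under 0.05 where 824 would fall by chance alone. The change of the difference between ages was called for 1927 genes (11.7%), 895 toward a higher and 1032 toward a lower difference in HFSC at 2 years. Numbers 1 and 2 of both ages carry one set number in their file names and number 3 another, so both ages hold both sets. CPM in the comparison of ages is scaled over all 18 libraries. The count at 2 months was 2293 without HFSC number 2 and 2392 without HFSC number 3 of that age.

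Bulge genes differed less between populations at 2 years. Cd34 had 151.5 ± 40.7 (SD, n = 3) CPM in HFSC at 2 months, 0.356 ± 0.430 in LRC and at most 3 reads in any nLRC library, and 11.3 ± 1.87, 4.05 ± 2.73 and 6.71 ± 0.954 CPM at 2 years. HFSC was thus lower and both epidermal populations higher at 2 years than at 2 months. With nLRC placed at 3 reads, group means gave a change of the difference of -7.82 on the log2 scale. The fitted change, which depends on the prior count, was -8.38 (edgeR adjusted p 1.08e-07), and alternatives ran from -9.61 to -5.59. Lhx2 had 75.0 ± 6.38 CPM in HFSC, 2.18 ± 0.405 in LRC and at most 3 reads per library in nLRC at 2 months, and 18.5 ± 6.12, 10.7 ± 2.74 and 7.27 ± 2.33 CPM at 2 years (SD, n = 3). Ctgf had 312.3 ± 87.4 CPM in HFSC against 2.31 ± 0.307 in LRC and 0.453 ± 0.125 in nLRC at 2 months, and 42.5 ± 5.01, 33.4 ± 7.65 and 22.4 ± 3.77 CPM at 2 years (log2 change -7.58, SE 0.22, edgeR adjusted p 3.50e-12). Krt15 had 3821 ± 193 CPM in HFSC, 1519 ± 575 in LRC and 386 ± 107 in nLRC at 2 months, and 755 ± 180, 746 ± 286 and 748 ± 196 CPM at 2 years (log2 change -2.35, SE 0.22, edgeR adjusted p 1.35e-06). Over the bulge lists, 37 of 42 tested genes were called higher and 1 lower at 2 months, with a median of 2.39, also with groups at the floor placed at 3 reads, and 30 of 42 changed between ages.

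Several epidermal genes that were low in HFSC at 2 months had HFSC levels near those of epidermal cells at 2 years. Krt10 had 51.2 ± 7.34 CPM in HFSC at 2 months, against 2050 ± 68.7 in LRC and 1444 ± 81.6 in nLRC, and 2680 ± 854, 2626 ± 256 and 3311 ± 789 CPM at 2 years (log2 change 4.90, SE 0.20, edgeR adjusted p 2.30e-10). Krt1, its partner, had 42.1 ± 15.7 CPM in HFSC at 2 months and 2269 ± 570 at 2 years. Klf5, a factor of basal keratinocytes, had 6.60 ± 0.939 and 90.6 ± 15.4 CPM, Tnfrsf19 2.28 ± 0.279 and 91.5 ± 35.4 CPM, and Fras1, a basement membrane protein, 5.84 ± 1.13 and 76.2 ± 27.5 CPM. Ano1, a chloride channel, Calm4, a calcium-binding protein of the epidermis, Plbd1, a phospholipase-like protein, and Mettl7a3, whose reads may be shared with its close relatives, showed the same pattern, with 2-month HFSC means of 1.76 to 11.2 CPM and 2-year means of 50.7 to 227 CPM. Mki67 had 86.3 ± 28.5 CPM in HFSC, 522 ± 178 in LRC and 370 ± 9.92 in nLRC at 2 months, and 230 ± 88.5, 260 ± 62.1 and 225 ± 25.4 CPM at 2 years (SD, n = 3). Of 30 proliferation genes, 28 were called lower in HFSC at 2 months and 14 changed between ages. Of 24 differentiation genes, 12 were called lower and 2 higher at 2 months, and 13 changed. Gatb went the other way: it had 8.87 ± 2.06 CPM in HFSC and 11.3 ± 3.31 and 12.2 ± 4.26 in epidermal cells at 2 months, and 18.6 ± 6.28 against 5.46 ± 0.416 and 11.9 ± 1.31 CPM at 2 years (log2 change 1.55, SE 0.32, edgeR adjusted p 0.00354).

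The genes with the largest 2-month differences had smaller ones at 2 years. The 20 highest in HFSC had a median log2 difference of 7.76 at 2 months, or 7.27 with 11 of them at their bound, and 0.72 at 2 years, where 18 lay above 0 and HFSC was the highest within all 3 numbers for 6. The 20 lowest had a median of -5.41, or -5.13 with 7 at their bound, and -0.12 at 2 years, where 13 lay below 0. The first value of each pair is enlarged by the selection, and over all tested genes the 2-year median was 0.03 with 54.0% above 0. The change was called for 18 and 19 of these genes. Grem1, Krt8 and Cd34 had the largest fitted values of the first list, but each has a 2-month group at the floor, and the order depends on the prior count: at their bounds Cd34 was at 8.93, Grem1 at 8.06 and Krt8 at 7.30, where Pdlim3, off the floor, had 8.38. The same holds for Emx2, Olig1 and Cpxm2 in the second list, at -2.53, -2.87 and -3.91 at their bounds, where Tmprss4, off the floor, had -5.71. Emx2, Olig1 and Cpxm2 were at 3 reads or fewer in every HFSC library at 2 months and had 3.10 ± 2.02, 2.21 ± 2.64 and 12.2 ± 8.98 CPM in HFSC at 2 years (SD, n = 3). In 12 of the first 20 and 6 of the second 20, all 9 libraries at 2 years lay between the 2-month means of HFSC and epidermal cells, as did 17 of 42 bulge genes (40.5%), 390 of the 3712 genes called at 2 months (10.5%) and 394 of all 16481 genes (2.39%). The lists of 20 were chosen for a wide gap at 2 months, which leaves more room between the means, so nothing is read from their counts. The endothelial genes moved with the first list: 8 of 8 were called higher in HFSC at 2 months, where they summed to 94.4 to 171.7 CPM against 15.4 to 30.9 in LRC and 22.04 to 27.4 in nLRC, and the 2-year ranges given above overlapped. Merkel cell genes summed to 38.9 to 75.9 CPM in HFSC and at most 10.6 in epidermal cells at 2 months. Krt8, which is also in the bulge lists, alone had 33.4 to 74.2 CPM in HFSC. Sox2 was at 0, and Atoh1 and Krt20 were at 3 reads or fewer in every library at 2 months. Fibroblast genes summed to 85.01 to 101.4 CPM in HFSC and 11.2 to 39.2 in epidermal cells at 2 months. T cell genes went the other way, at 1.70 to 2.39 CPM in HFSC, 25.5 to 34.2 in LRC and 50.9 to 67.7 in nLRC. Erythroid genes summed to at most 7.08 CPM and Langerhans and myeloid genes to at most 7.44 CPM in any library at 2 months. The 2-year ranges of these lists are given above. The part of these cells in the change was not tested.

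**Figure D5:**
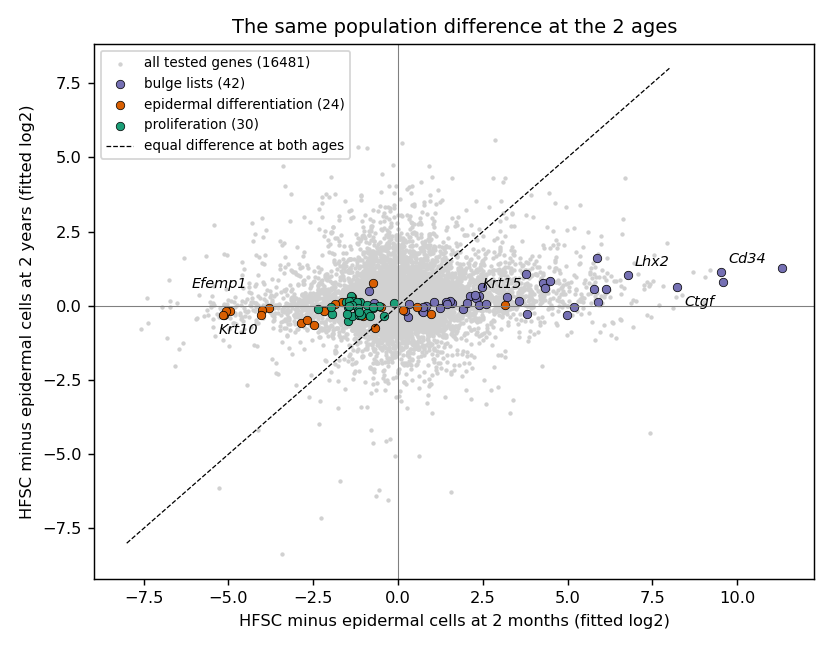
Fitted log2 difference of HFSC minus epidermal cells at 2 months (horizontal) and 2 years (vertical) for 16481 genes in the joint fit of 18 libraries, with 3 lists in colour. Points of genes at 3 reads or fewer in a 2-month group, such as Cd34 and Lhx2, depend on the prior count in their horizontal position. List genes spread widely along the horizontal axis and lie near 0 on the vertical axis, far from the dashed line of equal difference.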

How the data were processed

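Total gene reads were deposited by the authors as raw counts per gene and library, per the file headers, and served for all main tests; TPM values, also deposited by the authors, served for limma. The build was mm10, per the submitters' processing notes; the aligner, counter, annotation and strand setting are not given in the sources used here. The members and gene lists were chosen with earlier results of these data known.

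The 9 libraries at 2 years (8024983 to 13731614 gene reads) were fitted with edgeR 4.0.16 in R 4.3.3 (filterByExpr, TMM, robust quasi-likelihood, population plus replicate number as a block, Benjamini-Hochberg threshold 0.05), leaving 4 residual degrees of freedom. The blocks follow the titles. Same-numbered libraries deviated together with r over 0.1 in 7 of 9 pairs, which does not establish that they share an animal. A joint fit of 18 libraries, with blocks within age, compared 2 months with 2 years. The 6 libraries at 1.5 years entered only the alternative fits of all 24. DESeq2 1.42.0 and limma 3.58.1 (log2 of TPM plus 0.5) were alternatives, and the scripts were tested on simulated data. Positions are from GENCODE M21 and promoters from RefSeq.

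Genes named are a fixed panel, the 5 smallest p in each direction at 2 years, the 10 smallest p for replicate number and for the change between ages, 3 genes from each list of the 20 largest 2-month differences, and list genes with p under 0.01. Others, such as Tcf7l1, Sfrp1, Tek, Krt36, Krt2, Krt75, Fos and Egr1 beside replicate number, and members of lists called for replicate number, were named after their values were seen.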

Additional observations from a re-analysis of the deposited data

Results flagged for a closer look

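The difference of HFSC against epidermal cells changed between 2 months and 2 years, by a test of the change itself in edgeR, for 1927 genes. Examples among the genes described in the report whose difference moved down on the log2 scale were Ctgf (-7.58), Tbx1 (-5.58), Lgr5 (-5.20), Adamtsl1 (-3.31), Krt35 (-3.12), Sox9 (-2.90), Krt15 (-2.35), Fos (-1.72), Egr1 (-1.46) and Nfatc1 (-1.37). Genes with a 2-month group at 3 reads or fewer per library had that group placed at 3 reads, and their values come from group means. Of these, Cd34 (-7.82), Grem1 (-6.91), Krt8 (-6.60) and Lhx2 (-5.55) moved down, and Cpxm2 (4.21), Olig1 (2.25), Emx2 (2.07) and Akr1c18 (1.38) moved up. They are not lower limits, since fitted changes under alternatives were as small as -5.59 for Cd34, -4.96 for Grem1, -5.57 for Krt8 and -3.94 for Lhx2. For Cpxm2, Olig1 and Emx2 they were as small as 2.88, 2.07 and 1.81. The difference also moved up for Efemp1 (5.67), Mettl7a3 (5.19), Tnfrsf19 (5.16), Krt10 (4.90), Krt1 (4.80), Plbd1 (4.43), Ano1 (4.41), Fras1 (4.29), Calm4 (4.24), Krt84 (4.13), Klf5 (3.78), Ly6a (3.56), Hhip (2.75), Mki67 (2.25), Krt14 (1.68) and Gatb (1.55).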

How the results depend on the processing

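The count for HFSC against epidermal cells at 2 years was 0 without the replicate block, with RLE size factors, with at least 10 counts in every library, with limma, with all 24 libraries and in every fit that left out libraries; without a count filter it was 47 and with DESeq2 4. LRC against nLRC gave 0 except without a count filter (284) and with DESeq2 (3). For replicate number the 372 genes became 1192 without a filter, 864 with DESeq2, 57 with limma and 142 in the fit of all 24 libraries with a replicate block, and 22 to 1560 with libraries left out. The change between ages (1927) was 1221 with no replicate block, 1050 with limma and 693 with all 24 libraries and no block, and 1306 to 2330 with libraries left out. The 2-month count (3712) was 2443 with limma, 1725 with all 24 libraries and no block, and 2293 to 4594 with libraries left out. In LRC and HFSC libraries alone, replicate number took 56.5% of the sum of squares, an alternative chosen after seeing the data. The values against nLRC and for numbers 2 and 3 without nLRC number 1, and the sizes against LRC alone, were chosen after seeing the data too. Of 1868 values of named genes under alternatives, 26 lost a call and 15 gained one. The change between ages lost its call in 14 of 28 alternatives for Olig1, 4 of 29 for Fos and 1 of 29 for Nfatc1. Akr1c18, Baiap2l1, Hhip, Krt84, Ptgs1, Rpsa-ps10 and Xist each lost their call for replicate number in 1 alternative. Another 34 values changed sign, and 0 of these were called. Krt31 became -0.071 without the replicate block, -0.19 with DESeq2, -0.085 with all 24 libraries and no block and -0.045 against nLRC alone. With limma on TPM, Krt5 became 0.039, Krt10 0.12, Mki67 0.14, Efemp1 -0.086, Dlx1 0.14, Slc1a3 0.29 and the change of Dct 0.044. Krt5 was 0.00702 against LRC alone, and Dlx1 was 0.16 and Slc1a3 0.057 against nLRC alone. With libraries left out, the 2-year difference ran from -0.66 to 1.38 for Krt31, -0.26 to 0.19 for Dlx1, -0.17 to 0.12 for Slc1a3, -0.023 to 0.29 for Efemp1, -0.089 to 0.11 for Krt15 and -0.28 to 0.000977 for Mki67, and the change of Krt31 from -1.79 to 0.16. The causes were not tested.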
